A study of Mus musculus with 12 samples.

Results

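The glucocorticoid receptor Nr3c1 and 9 genes long known as its targets were followed in mouse colon, with dexamethasone-treated colitis first. The genes were taken by symbol from the deposited count table: Nr3c1, Fkbp5, Tsc22d3, Zbtb16, Dusp1, Klf9, Ddit4, Mt1, Mt2 and Hsd11b1. They are 10 of 54532 genes in that table, and all 10 were among the 16904 genes that passed the filter on low counts. Whole colon sections came from male wild-type C57BL/6J mice, 5 weeks old, in 4 groups with 3 libraries each. The control group received no treatment, the model group received dextran sulfate sodium (DSS, which injures the colon lining when drunk), the Rhy group received DSS with rhynchophylline, an alkaloid, and the DXM group received DSS with dexamethasone at 4 mg/kg. DSS was therefore shared by the model, Rhy and DXM groups. Which of the study's Rhy doses the sequenced mice had, the route of DXM and the time from its last dose to tissue collection are not given in the sources used here. The labels do not say that the 3 libraries of a group came from separate mice, so p-values measure the spread between these libraries.

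Dexamethasone is a synthetic glucocorticoid. It binds the receptor encoded by Nr3c1, which chaperones hold in the cytoplasm, and the bound receptor enters the nucleus and acts on its target genes. Some targets are raised and feed back on the hormone's action, others oppose inflammation, and many inflammatory genes are held down. In many tissues, Fkbp5, Tsc22d3, Zbtb16, Klf9, Ddit4 and the metallothioneins are raised within hours of a dose, so they are often read as a record of glucocorticoid exposure.

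Total counts ran from 14346478 to 17749716 per library. Hoxb13, a marker of the distal colon, was at 0 to 1.49 CPM (counts scaled to library size) in control 3, model 3 and Rhy 1 and at 72 to 316 CPM in the other 9 libraries, so no DXM library was among the 3 low ones. Model 1 and model 2 were the most alike of all pairs of libraries: the SD of log2 CPM differences over genes was 0.353 for them and 0.631 to 1.37 for each of 65 further pairs. The counts of model 1 and model 2 varied 1.91 times as much as sampling noise alone gives, against 9.73 to 55.5 times for the other 65 pairs. That ratio does not show whether model 1 and model 2 came from separate mice. Both libraries were kept, and a fit with their counts summed was run as an alternative. Summing them took the genes at an unadjusted p under 0.05 in DXM against model (edgeR) from 1300 to 736. All 15 colon epithelium markers and all 10 smooth muscle markers passed the filter and were above 0 in every library. In whole tissue, fewer cells of a type and less RNA per cell cannot be told apart.

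Per length of transcript, the 10 genes covered a wide range. Mt1, a metal-binding metallothionein, had the highest level, with a median over the 12 libraries of 321 FPKM (fragments scaled to transcript length and library size; range 152 to 886). Ddit4, an inhibitor of mTOR signalling, followed at a median of 34.8 FPKM (17.6 to 48.2). Tsc22d3, Fkbp5 and Dusp1 came next at medians of 21.1, 19.9 and 17.8 FPKM, and their ranges overlapped. Nr3c1 itself had a median of 10.7 FPKM (6.86 to 20.6). Klf9, a zinc finger transcription factor, had 7.04 FPKM, Mt2, the second metallothionein, 1.87 FPKM, and Hsd11b1, the enzyme that regenerates active corticosteroid from its inert 11-keto form, 1.09 FPKM. Zbtb16, a transcription factor of innate-like lymphocytes and other cells, was the lowest at 0.463 FPKM and rested on 10 to 105 counts a library.

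None of the 10 genes passed an adjusted p of 0.05 in any of the 5 comparisons (edgeR quasi-likelihood test with Benjamini-Hochberg adjustment over 16904 genes). Neither did any other gene: the share called was 0% for DXM against model, DXM against control, DXM against the other 3 groups, model against control, and Rhy against model. The smallest adjusted p over all genes was 0.622, 0.0971, 0.217, 0.459 and 0.964, in that order. At an unadjusted p under 0.05, 2 of the 10 genes stood higher in DXM than in model (Dusp1 and Hsd11b1) and 0 stood lower, where 7.69% of all genes passed. Against control, 2 stood lower in DXM (Nr3c1 and Tsc22d3), where 18.9% of all genes passed. Against the other 3 groups, Dusp1 stood higher and Tsc22d3 lower, where 12.8% passed. Dusp1 stood lower in model than in control, where 9.62% passed, and Zbtb16 stood lower in Rhy than in model, where 3.72% passed. Without DXM 3, 1 gene (Mt2) stood higher in DXM than in model at that level, where 3.11% of all genes passed. Without the 3 Hoxb13-low libraries 2 stood higher (Dusp1 and Hsd11b1) and 2 lower (Tsc22d3 and Zbtb16), where 9.11% passed.

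The direction also differed among the targets. In DXM against model, 4 of the 10 log2 fold changes were above 0 (Dusp1, Mt1, Mt2 and Hsd11b1) and 6 below, with a median of -0.37 beside -0.01 for all genes. The 3 DXM libraries all lay below the 3 model libraries for Nr3c1, Fkbp5, Tsc22d3 and Klf9, which was so for 12.2% of all genes. The margin between DXM 2 and the lowest model library was small for Fkbp5 (193 and 194 CPM), Tsc22d3 (73 and 73.8 CPM) and Klf9 (23.4 and 23.8 CPM). Model 1 and model 2 were also nearly alike. No member had its DXM libraries all above the model libraries, which was so for 10.4% of all genes. The DXM libraries lay below all 9 other libraries for Tsc22d3 alone (1.12% of all genes) and above all 9 for none of the 10 (0.976% of all genes).

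**Figure D1:**
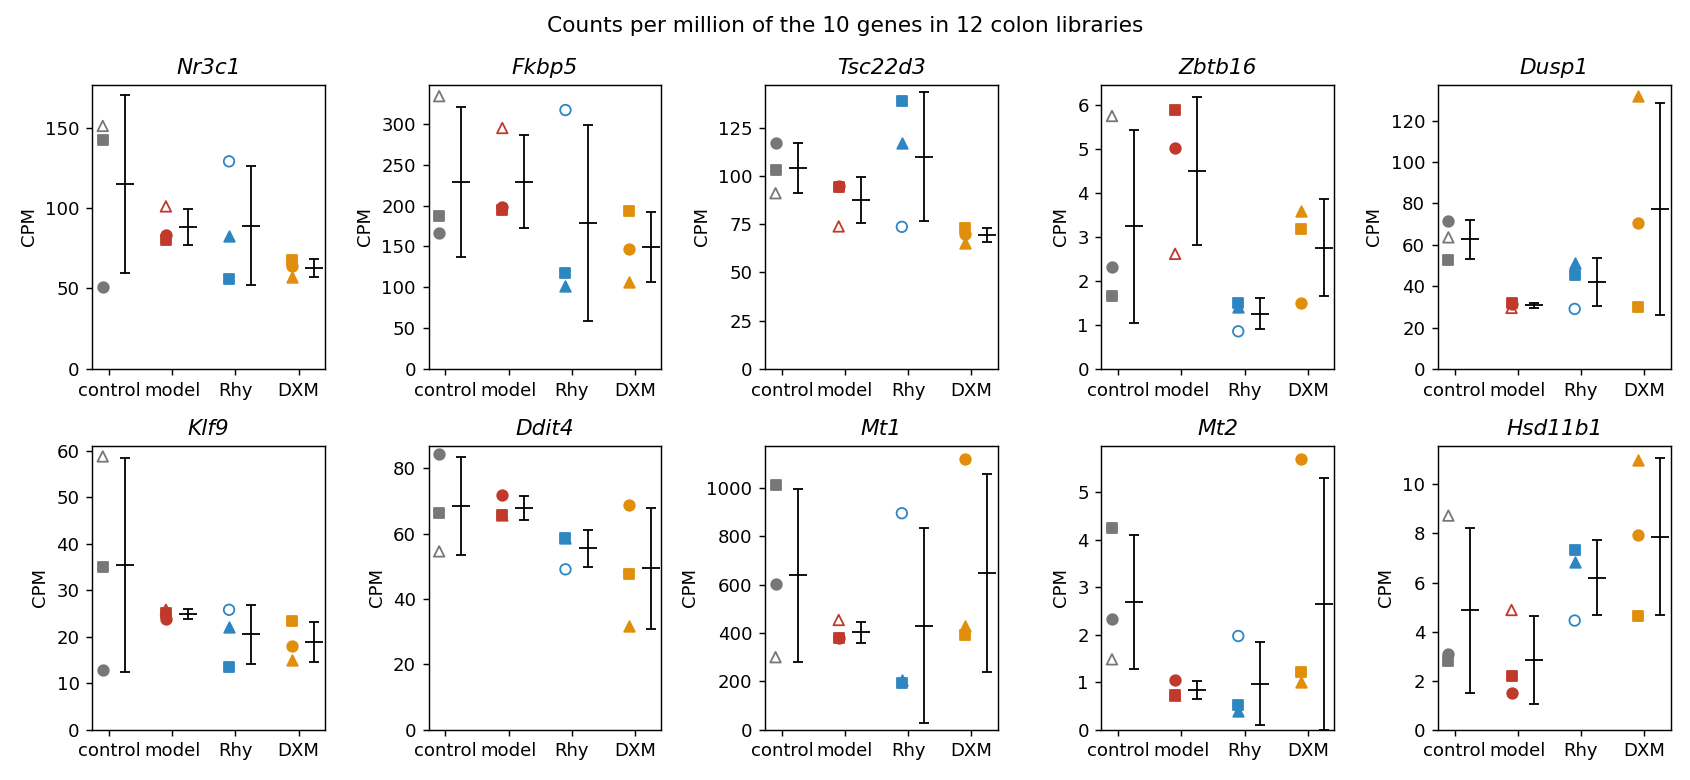
CPM (linear axis from 0) of each of the 10 genes by group. Circles, squares and triangles are replicates 1, 2 and 3, hollow symbols are the 3 libraries with Hoxb13 under 5 CPM, and the bars are the mean and SD (n = 3). The 3 DXM libraries of Tsc22d3 sit at 65.4 to 73 CPM, below all 9 others, while those of Dusp1 spread from 30.1 to 132 CPM.

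Nr3c1 (ENSMUSG00000024431, chromosome 18:39410545-39491301 on mm10, minus strand) was at 63.8, 67.9 and 57.1 CPM in DXM 1 to 3. Model 1 to 3 held 83.2, 80.2 and 101 CPM, control 1 to 3 held 50.8, 142 and 151 CPM, and Rhy 1 to 3 held 129, 56 and 82.7 CPM. The DXM libraries were close together and below the model libraries, but control 1 and Rhy 2 were lower still. The fitted log2 fold change was -0.49 ± 0.37 (SE) for DXM against model (adjusted p = 0.747) and -0.87 ± 0.38 for DXM against control (adjusted p = 0.245), by edgeR. Without the 3 Hoxb13-low libraries these were -0.36 and -0.64.

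Fkbp5 (ENSMUSG00000024222, chromosome 17:28399094-28517527, minus strand) encodes a co-chaperone that lowers the receptor's affinity for hormone, and its induction forms a short negative feedback loop. It was at 147, 193 and 107 CPM in DXM 1 to 3 and 198, 194 and 295 CPM in the model libraries. The control libraries held 166, 187 and 334 CPM and the Rhy libraries 317, 118 and 101 CPM. The highest value of the control, model and Rhy groups was in each case that of the Hoxb13-low library, at 295 to 334 CPM, against 101 to 198 CPM in the other 9 libraries, DXM included. The fitted difference between DXM and model was -0.63 ± 0.43 on the log2 scale (adjusted p = 0.725, edgeR). It was -0.39 without the 3 Hoxb13-low libraries and -0.27 with a term for them, both settings chosen after the data were seen.

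**Figure D2:**
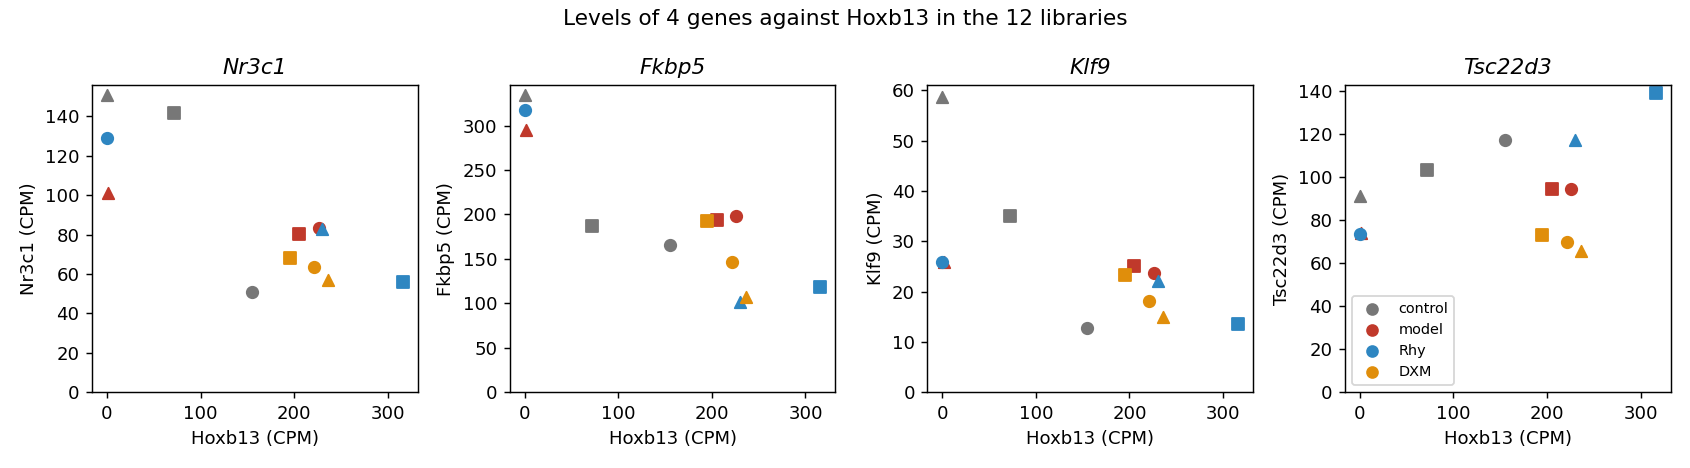
CPM of Nr3c1, Fkbp5, Klf9 and Tsc22d3 (y axes, from 0) against Hoxb13 (x axis, CPM) in the 12 libraries, coloured by group, with circles, squares and triangles for replicates 1, 2 and 3. The 3 libraries with Hoxb13 under 5 CPM hold the 3 highest Fkbp5 values, 295 to 334 CPM, and none of them is a DXM library.

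Tsc22d3 (ENSMUSG00000031431, chromosome X:140539528-140600659, minus strand) encodes GILZ, a leucine zipper protein that binds NF-κB and mediates part of the anti-inflammatory action of glucocorticoids. It was at 69.9, 73 and 65.4 CPM in the DXM libraries. The model libraries held 94.5, 94.4 and 73.8 CPM, the control libraries 117, 103 and 91 CPM, and the Rhy libraries 73.6, 139 and 117 CPM. Every DXM library was below every other library, although Rhy 1 and model 3, both Hoxb13-low, came within 1 CPM of the highest DXM value. The log2 fold change was -0.53 ± 0.19 for DXM against the other 3 groups (adjusted p = 0.33, edgeR), -0.58 ± 0.22 against control (adjusted p = 0.205) and -0.33 ± 0.22 against model (adjusted p = 0.713). It kept its sign in all 22 alternative fits of DXM against the other 3 groups, from -0.67 to -0.45, with a smallest adjusted p of 0.163.

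Klf9 (ENSMUSG00000033863, chromosome 19:23141226-23166911, plus strand) was at 18.1, 23.4 and 15 CPM in DXM 1 to 3 and 23.8, 25.1 and 25.8 CPM in the model libraries. The control libraries ranged from 12.8 to 58.8 CPM, the highest being the Hoxb13-low control 3. The Rhy libraries held 25.8, 13.5 and 22.1 CPM. DXM against control gave a log2 fold change of -0.92 ± 0.43 (adjusted p = 0.274, edgeR). It was -0.37 without control 3 and -1.32 without control 1, the lowest control library. Klf9 and Nr3c1 varied together over the 12 libraries (Pearson r = 0.91 of log2 CPM, a description over libraries that share groups and tissue position).

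Zbtb16 (ENSMUSG00000066687, chromosome 9:48654297-48836222, minus strand) was at 1.51, 3.18 and 3.6 CPM in DXM 1 to 3 and 5.02, 5.89 and 2.62 CPM in the model libraries. The Rhy libraries held 0.856, 1.5 and 1.41 CPM. The control libraries held 2.32, 1.67 and 5.76 CPM, so control 1 and control 2 lay below the lowest model library. Rhy against model gave a log2 fold change of -1.83 ± 0.54 (adjusted p = 1, edgeR). The 10 T cell markers were also lower in Rhy than in model, 10 of 10 by sign and 2 of 10 at an unadjusted p under 0.05, with a summed level of 12 to 36.5 CPM in Rhy and 40 to 53.5 CPM in model. None of these markers was at 0 in any library. The 10 B cell markers were lower in Rhy too, 10 of 10 by sign and 0 at that level, with a median log2 fold change of -1.06 beside -0.72 for the T cell markers, and so were 9 of 9 fat cell markers (median -0.25). Rhy 1 was the lowest library for both lymphocyte lists, with the T cell markers summing to 12 CPM and the B cell markers to 1.97 CPM, 5 of the latter at 0. The part of these cells in the Zbtb16 values was not tested.

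Ddit4 (ENSMUSG00000020108, chromosome 10:59949669-59951834, minus strand), which glucocorticoids, hypoxia and nutrient stress all raise, was at 68.7, 47.7 and 31.9 CPM in the DXM libraries. The model libraries held 72, 65.6 and 65.6 CPM, so DXM 1 lay among them and the other two lay below. The log2 fold change was -0.46 ± 0.25 (adjusted p = 0.677, edgeR). In the list of 12 genes of hypoxia and the integrated stress response, 4 were above 0 and 8 below in the same comparison, with a median of -0.08 beside -0.01 for all genes.

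Dusp1 (ENSMUSG00000024190, chromosome 17:26505590-26508519, minus strand) encodes a phosphatase that switches off MAP kinases. It is raised by glucocorticoids and also, as an immediate early gene, by growth factors and stress through cyclic AMP response elements. The upstream sequence is shown for its copies of the core of that element, TGACGT. The stretch runs from RefSeq's GRCm38.p6 promoter table up to the start of the gene as deposited (chr17:26508520-26508722, minus strand), 5′ to 3′, with the core in capitals.
Dusp1: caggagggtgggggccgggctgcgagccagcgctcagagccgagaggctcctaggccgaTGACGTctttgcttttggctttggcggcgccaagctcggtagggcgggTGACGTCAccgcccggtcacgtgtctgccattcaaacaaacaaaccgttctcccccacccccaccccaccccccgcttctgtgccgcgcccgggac
The core was found 3 times when both strands were read, with 2 of these overlapping on opposite strands. Among 32851 promoters of 250 upstream bases, 6.47% held it at least once. It was also found once each upstream of Klf9 and Mt1. The promoters of the other immediate early genes were not searched. The receptor's half-site TGTTCT was absent from this window of Dusp1 and present in 16.1% of promoters, and a match or its absence is a description of these letters only. Of the 10 genes, 8 had an entry in the promoter table, all but Nr3c1 and Zbtb16. The half-site was found upstream of 1 of the 3 listed starts of Tsc22d3 and in no other member, and 2 half-sites facing each other with a gap of 3 bases were found in no member and in 0.00913% of promoters.

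Dusp1 was at 70.6, 30.1 and 132 CPM in the DXM libraries. Model 1 to 3 held 31.3, 31.7 and 29.5 CPM, control 1 to 3 held 71.6, 52.8 and 63.6 CPM, and Rhy 1 to 3 held 29, 45.5 and 51.3 CPM. DXM 1 and DXM 3 were above every model library, but DXM 2 lay among them. The log2 fold change was 1.33 ± 0.41 for DXM against model (adjusted p = 0.622) and -1.02 ± 0.41 for model against control (adjusted p = 0.49), by edgeR. Without DXM 3 the first was 0.71. In DESeq2 restricted to the groups compared both passed the threshold, with adjusted p-values of 0.0424 and 0.00617. Those DESeq2 fits called 590 and 167 genes in all, against 0 in the edgeR fit of all libraries. Model libraries enter both comparisons, and model 1 and model 2 were nearly alike.

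The immediate early genes varied with Dusp1. Their list holds 19 genes, of which 15 were higher in DXM than in model, 7 of them at an unadjusted p under 0.05, and 18 were lower in model than in control, 6 of them at that level. The median log2 fold changes were 0.72 and -0.75, beside -0.01 and 0.01 for all genes. Without DXM 3, the first count was 14 of 19, 1 of them at that level, with a median of 0.18. Against control, 11 of 19 were lower in DXM, 6 of them at that level, while 1 of the 8 others was higher at it (median -0.17). Of all genes, 18.9% passed that level in DXM against control, 7.69% in DXM against model and 9.62% in model against control. The summed level of the list was 1502 to 2757 CPM in DXM and 1838 to 2010 CPM in model. It was 2878 to 3230 CPM in control and 1997 to 2492 CPM in Rhy. Over the 12 libraries the mean log2 CPM of the list and that of Dusp1 had a Pearson r of 0.95. Nr4a1, an orphan nuclear receptor of this class, was at 221 CPM in DXM 3 against 11.2 to 63.5 CPM in the other libraries. The part of these genes in the Dusp1 values was not tested.

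Mt1 (ENSMUSG00000031765, chromosome 8:94179082-94180327, plus strand) and Mt2 (ENSMUSG00000031762, chromosome 8:94172664-94173568, plus strand) lie side by side and bind zinc and copper. Both are raised by glucocorticoids and, through metal response elements, by zinc. Their upstream sequences are shown because the pair varied together. They come from RefSeq's GRCm38.p6 promoter table (Mt1, chr8:94178839-94179081, and Mt2, chr8:94172368-94172617, both plus strand), 5′ to 3′. Capitals mark matches to the pattern TGCNCNC on either strand, where N is any base. The metal response core itself is narrower, TGCRCNC with R for A or G, so some matches are not that core.
Mt1: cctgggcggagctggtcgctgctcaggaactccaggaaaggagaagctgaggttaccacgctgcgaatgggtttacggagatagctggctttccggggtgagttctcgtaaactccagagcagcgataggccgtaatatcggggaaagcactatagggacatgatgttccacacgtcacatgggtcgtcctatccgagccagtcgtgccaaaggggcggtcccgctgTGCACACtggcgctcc
Mt2: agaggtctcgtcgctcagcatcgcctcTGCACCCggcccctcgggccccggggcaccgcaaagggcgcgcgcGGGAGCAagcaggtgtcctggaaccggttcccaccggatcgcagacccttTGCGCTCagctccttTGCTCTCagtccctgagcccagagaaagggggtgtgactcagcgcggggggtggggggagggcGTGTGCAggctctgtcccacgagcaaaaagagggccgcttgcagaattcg
The core was found once upstream of Mt1 and 5 times upstream of Mt2, and 44.4% of promoters held it at least once. These counts depend on where the listed start of each gene lies, and bases after the windows were not searched. The stretch shown for Mt1 ended at the deposited start of the gene, while that of Mt2 ended before it. The counts therefore do not show that Mt2 has more metal response elements than Mt1. The same loose pattern was also found 2 times upstream of Ddit4 and once each upstream of Fkbp5, Hsd11b1 and 1 of the 3 starts of Tsc22d3.

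Mt1 was at 1121, 391 and 431 CPM in DXM 1 to 3 and 379, 378 and 454 CPM in the model libraries. Mt2 was at 5.69, 1.21 and 1.01 CPM in DXM 1 to 3 and 1.05, 0.728 and 0.715 CPM in the model libraries. For both genes DXM 1 was far above the rest of its group, and DXM 2 and DXM 3 were near the model libraries. The share of counts from mitochondrial genes was 25.7% in DXM 1, 7.88% in DXM 2 and 7.48% in DXM 3. It was 23.8% in Rhy 1, 21% in control 1 and 17% in control 2, the next 3 libraries by Mt1 level, and 6.33% to 15.2% in the remaining libraries, and its part in the Mt1 and Mt2 values was not tested. DXM against model gave a log2 fold change of 0.68 ± 0.63 for Mt1 (adjusted p = 0.788) and 1.64 ± 0.78 for Mt2 (adjusted p = 0.655), by edgeR. Without DXM 1 these were 0.03 and 0.41. Against control both were near 0, at 0.02 and -0.03.

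Mt1 and Mt2 varied together over the 12 libraries (Pearson r = 0.89 of log2 CPM, Spearman rho = 0.79 of CPM). Control 2, at 1013 and 4.24 CPM, and Rhy 1, at 896 and 1.97 CPM, were the next highest for Mt1 and were also high for Mt2. Mt1 had 197 to 634 times as many counts as Mt2, which rested on 7 to 83 counts a library. The coding sequences of these paralogs are similar, 432 of the 588 exonic bases of Mt2 are shared with the antisense gene Gm45774 in GENCODE M21, and whether the counting used strand is not given in the sources used here, so the level of Mt2 is uncertain. Of the 10 genes of the metal and oxidative stress list, 1 was above 0 and 9 below in DXM against model, with a median of -0.43.

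Hsd11b1 (ENSMUSG00000016194, chromosome 1:193221634-193264075, minus strand) was at 7.95, 4.63 and 11 CPM in DXM 1 to 3 and 1.49, 2.18 and 4.88 CPM in the model libraries. The control libraries held 3.07, 2.78 and 8.73 CPM and the Rhy libraries 4.45, 7.31 and 6.85 CPM. DXM 1 and DXM 3 were above every model library, and DXM 2 lay below model 3 only. The log2 fold change was 1.46 ± 0.55 for DXM against model (adjusted p = 0.637, edgeR). It was 2.11 without model 3, 1.15 without model 1 and 1.14 without DXM 3. DXM against control gave 0.69 ± 0.54 (adjusted p = 0.508, edgeR), and Rhy against model gave 1.12 ± 0.55. The gene lies within the span of Lamb3 on the opposite strand but shares 0 exonic bases with it in GENCODE M21.

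Fibroblast markers were higher in the same libraries. All 10 were above 0 in DXM against model, 9 of them at an unadjusted p under 0.05, with a median log2 fold change of 1.14 beside -0.01 for all genes. Without DXM 3 it was still 10 of 10, 4 of them at that level, with a median of 0.97. Their summed level was 1029 to 2136 CPM in DXM, 595 to 664 CPM in model, 650 to 1199 CPM in control and 437 to 1836 CPM in Rhy, and none was at 0 in any library. The most abundant, Col3a1, was at 509, 371 and 828 CPM in DXM 1 to 3 and 184 to 238 CPM in the model libraries. Hsd11b1 and the mean log2 CPM of the list had a Pearson r of 0.75 over the 12 libraries. In Rhy against model, 9 of 10 fibroblast markers were higher, 4 of them at that level. Macrophage markers (8 of 10, 5 at an unadjusted p under 0.05) and smooth muscle markers (10 of 10, 6 at that level) were also higher in DXM than in model. Without DXM 3, 1 macrophage marker and 1 smooth muscle marker were at that level. Macrophage markers summed to 409 to 576 CPM in DXM, 303 to 404 CPM in model and 334 to 656 CPM in control. Smooth muscle markers summed to 5693 to 9977, 4125 to 5276 and 3687 to 6874 CPM in that order. In DXM against control, 7 of 10 macrophage markers were higher, 0 of them at that level, and 10 of 10 smooth muscle markers, 7 of them at it. The part of these cells in the Hsd11b1 values was not tested.

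**Figure D3:**
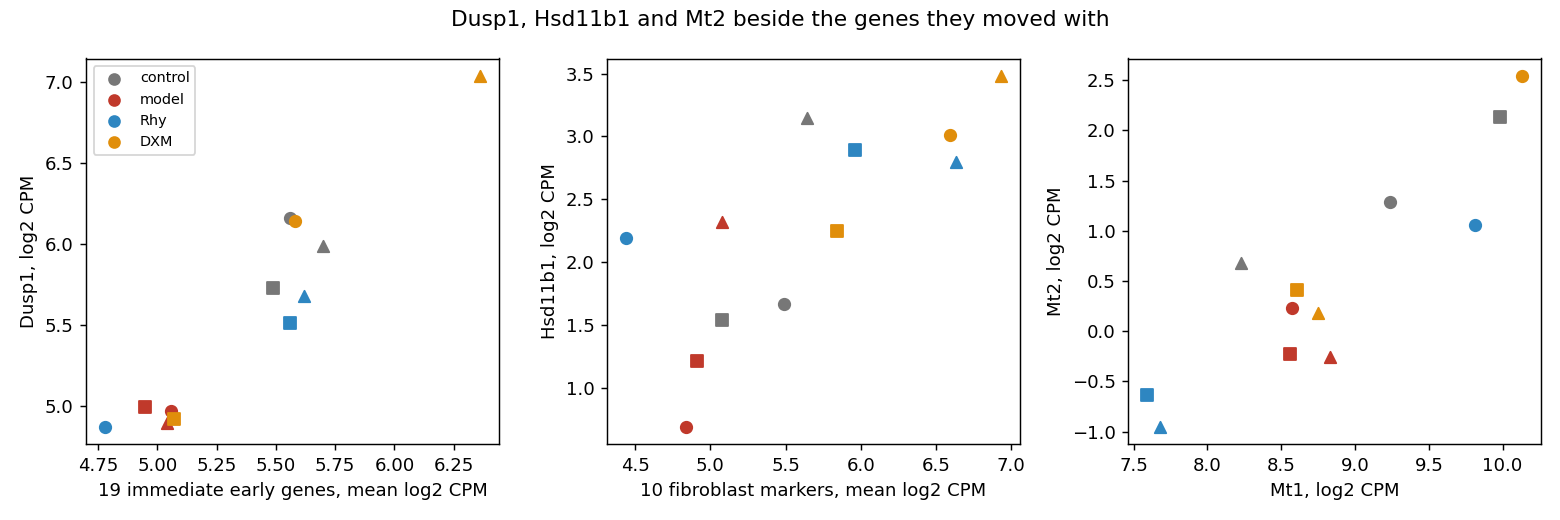
Left, Dusp1 against the mean of 19 immediate early genes; middle, Hsd11b1 against the mean of 10 fibroblast markers; right, Mt2 against Mt1, all in log2 CPM, with each point a library coloured by group and circles, squares and triangles for replicates 1, 2 and 3. DXM 3 is the highest point of the first and second plots and DXM 1 of the third, with Pearson r of 0.95, 0.75 and 0.89 over 12 libraries.

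The receptor's partners showed no shared direction. Of 16 genes for chaperones, coactivators and corepressors of the receptor, 8 were above 0 and 8 below in DXM against model, 0 at an unadjusted p under 0.05, with a median log2 fold change of -0.03. Among those with the smallest p were the chromatin remodeller Smarca4 (-0.26 ± 0.15, adjusted p = 0.684) and the co-chaperone Ptges3 (0.43 ± 0.28, adjusted p = 0.701), by edgeR. Of 12 genes of steroid synthesis, metabolism and export, 9 were tested, and 4 were above 0 and 5 below, with a median of -0.06. The drug exporter Abcb1b (1.2 ± 0.42, adjusted p = 0.622) was the only one at an unadjusted p under 0.05. Nr5a2, which drives steroid synthesis in the intestine, was at -1 ± 0.47 and Cyp3a13, a steroid-metabolising P450, at -0.82 ± 0.59 (adjusted p = 0.653 and 0.731).

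Of 26 other genes known to be induced by glucocorticoids, 16 were above 0 and 10 below in DXM against model, 2 of the former at an unadjusted p under 0.05, with a median of 0.14. The scavenger receptor Cd163, a gene of macrophages, whose markers were also higher, had the smallest p, at 5.49, 0.868 and 2.33 CPM in DXM 1 to 3 and 0.331, 0.485 and 0.655 CPM in the model libraries (log2 fold change 2.54 ± 0.71, adjusted p = 0.622, edgeR). Control 1 to 3 held 2.32, 0.974 and 4.5 CPM and Rhy 1 to 3 held 1.97, 1.83 and 1.75 CPM, all above the model libraries. For Cd163 the log2 fold change was 0.14 ± 0.64 for DXM against control and 1.9 ± 0.71 for Rhy against model. Pck1, an enzyme of gluconeogenesis, was at 0.51 ± 0.21 and Lpin1, a phosphatidate phosphatase, at 0.6 ± 0.29. Against control the same list ran the other way, with 17 of 26 below 0 and a median of -0.46 beside 0.06 for all genes. At an unadjusted p under 0.05, 9 of the 26 were lower and 1 higher, where 18.9% of all genes passed. Model against control had a median of -0.5 for it.

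Inflammatory genes that glucocorticoids are known to hold down stood mostly higher in DXM than in model by sign. Of 20 such genes 12 were tested, and 11 were above 0 and 1 below in DXM against model, 4 of the former at an unadjusted p under 0.05, with a median of 0.62. Without DXM 3, 2 of 13 tested were at that level, with a median of 0.5. The monocyte attractant Ccl2 was at 2.06, 4.29 and 11.3 CPM in DXM 1 to 3 and 0.386, 0.789 and 0.417 CPM in the model libraries. The neutrophil attractant Cxcl1 was at 1.3, 3.52 and 5.98 CPM in DXM 1 to 3 and 0.772, 0.121 and 0.298 CPM in the model libraries. For both genes every DXM library was above every model library, which was so for 10.4% of all genes, and DXM 3 was the highest. Their log2 fold changes were 3.46 ± 0.77 and 3.15 ± 0.76 (adjusted p = 0.622 for both, edgeR). Both were picked for a small p in this same comparison, and their model values rested on 2 to 14 counts a library. Il1b, a pyrogenic cytokine, was at 1.93 ± 0.71 (adjusted p = 0.63). The model libraries were themselves not above control for this list, with 3 of 12 above 0 and a median of -0.51 in model against control.

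Clock genes, several of which glucocorticoids also reset, were read in the same way, and none passed the adjusted threshold. Of 15 clock genes 11 were lower in model than in control, 6 of them at an unadjusted p under 0.05, and 10 were higher in DXM than in model, 5 of them at that level, while 1 of the 5 others was lower at it. Against control, 10 of 15 were lower in DXM, 2 of them at that level. Of all genes, 9.62% passed it in model against control, 7.69% in DXM against model and 18.9% in DXM against control. Dbp was at 110, 84.2 and 63.4 CPM in the DXM libraries and 40, 36.8 and 39.4 CPM in model 1 to 3. It was at 112, 97.6 and 62.9 CPM in the control libraries and 61.6, 44.5 and 15.3 CPM in Rhy 1 to 3. The hour of tissue collection is not given in the sources used here. Of the remaining cell lists, DXM against model had 4 of 15 colon epithelium markers, 1 of 9 fat cell markers, 5 of 10 T cell markers and 8 of 10 B cell markers above 0. Without the Hoxb13-low libraries the fat cell count was 7 of 9.

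**Figure D4:**
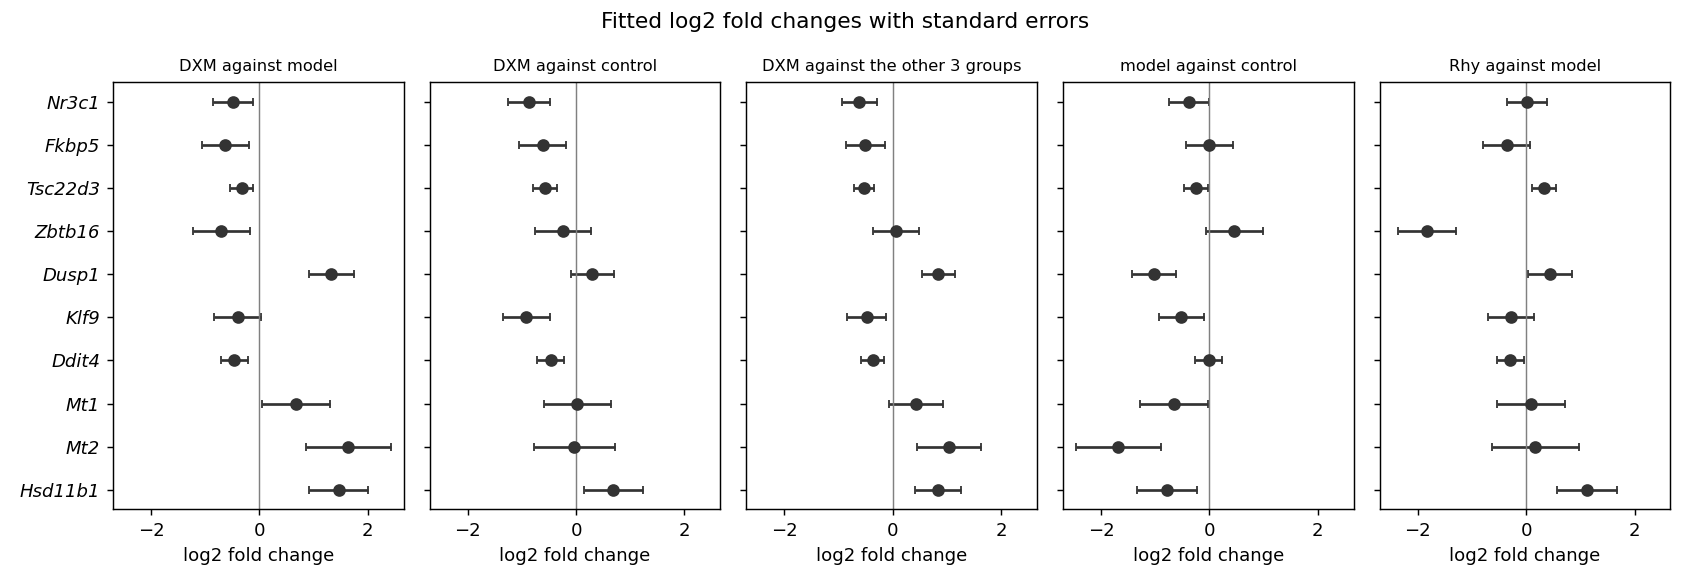
Fitted log2 fold changes (x axis) of the 10 genes with their standard errors in the 5 comparisons, from edgeR; the vertical line is 0. In DXM against model, Dusp1 (1.33), Hsd11b1 (1.46), Mt2 (1.64) and Mt1 (0.68) lie right of 0 and the other 6 genes left of it, and no adjusted p was under 0.05.

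The genes most like the receptor and its feedback targets over the 12 libraries were found by Pearson r of log2 CPM among all tested genes, given as a description. For Nr3c1 these were Ankib1 (r = 0.99), Alkbh5 (0.98) and Atl2 (0.98). For Fkbp5 they were Acacb (0.96), Rgsl1 (0.94) and Rnf5 (0.94), of which Rgsl1 was barely detected, at 0 to 0.953 CPM. Acacb, an acetyl-CoA carboxylase, was at 29.8 to 40 CPM in the 3 Hoxb13-low libraries and 7.18 to 19.4 CPM in the other 9, as Fkbp5 was also highest in the former. For Tsc22d3 the nearest genes included Rhpn2 (0.84) and Mtfr1 (0.83), so its pattern was less closely matched than that of the other two.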

How the data were processed

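Colon RNA of 12 libraries was sequenced on a HiSeq X10 from mRNA libraries. Per the submitters' processing notes the authors used HISAT2 2.0.5, featureCounts 1.5.0-p3 and DESeq2 1.16.1 on mm10; strand and multi-mapping settings are not given in the sources used here. The authors deposited raw counts per gene and FPKM. Of the FPKM values above 0, a rounded 100% were recovered from the counts and gene lengths to within 0.1% or 0.001 FPKM, with 1 scale per library.

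Counts were tested with edgeR 4.0.16 in R 4.3.3: filterByExpr (minimum count 10), TMM scaling, a quasi-likelihood fit of all 12 libraries by group, two-sided, Benjamini-Hochberg over 16904 genes. CPM use TMM-scaled totals, and log2 CPM a prior count of 2. SE is the log2 fold change divided by the square root of F. Scripts were tested on simulated counts. Depth was 14346478 to 17749716 counts, and counting error is only part of the spread. Alternatives were RLE and upper-quartile scaling, no filter, only the groups compared, a replicate block, DESeq2 1.42.0, limma 3.58.1 on log2(FPKM + 1) and log2(FPKM + 0.1), model 1 and 2 summed, each library left out, and, added later, a term for or removal of libraries with Hoxb13 under 5 CPM.

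The members and the 15 other lists were chosen with earlier results of these data known. Named besides the members were, from 4 lists, genes with an adjusted p under 0.05 in DXM against model or else the 3 with the smallest p, the 3 genes most like Nr3c1, Fkbp5 and Tsc22d3, Hoxb13, and the most abundant marker of a cell list whose level moved with a member (Col3a1). Some genes that this rule names are not reported here. Nr4a1, Dbp, Gm45774 and Lamb3 were named after their values were seen. The labels do not say what a replicate number marks. Same-numbered model and control libraries deviated together (3 of 3 pairs over 0.1, up to 0.36), and control 3 and model 3 are both Hoxb13-low. Coordinates are the deposited ones on mm10. Motifs were searched on both strands in 250 upstream bases.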

Additional observations from a re-analysis of the deposited data

How the results depend on the processing

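Of 940 alternative values of the members' log2 fold changes, 876 kept their direction and their side of the threshold, 62 changed sign and 2 passed the threshold, both for Dusp1 in DESeq2 with only the groups compared (1.34 for DXM against model and -1.07 for model against control, where 1 member was called in each). The counts of genes called, 0 in every comparison of the report, were for DXM against model 2 with only the groups compared, 51 in DESeq2 with all libraries, 590 in DESeq2 with only the groups compared, 2 in limma on log2(FPKM + 0.1) and 2 without the Hoxb13-low libraries. They were 13 without the filter, 1059 and 395 in the 2 DESeq2 fits for DXM against control, 13 without the filter and 119 in DESeq2 for DXM against the other 3 groups, 1 without the filter, 1 with only the groups compared, 46 and 167 in DESeq2 for model against control, and 5 and 44 in DESeq2 and 2 in limma on log2(FPKM + 0.1) for Rhy against model. Leaving out 1 library gave 0 to 4 for DXM against control and 0 to 1 for model against control and Rhy against model. The cause was not tested.

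Genes at an unadjusted p under 0.05 in DXM against model numbered 1300, and 2514 and 2644 with only the groups compared (edgeR and DESeq2), 736 with model 1 and model 2 summed, 775 and 771 without model 1 or model 2 and 537 without DXM 3. Without DXM 3 they fell from 3189 to 1639 against control and from 2172 to 706 against the other 3 groups; without control 2 the former was 2061 and without control 1 the latter was 3357. Model against control went from 1626 to 866 with model 1 and 2 summed, 888 and 901 without either, 2811 without control 3 and 2686 without the Hoxb13-low libraries. Rhy against model went from 628 to 972 without the filter, 1021 in DESeq2 with only the groups compared, 283 with model 1 and 2 summed, 289 and 293 without either, 1007 without model 3, 1066 without Rhy 1 and 1453 without the Hoxb13-low libraries.

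Signs changed as follows. DXM against control changed for Mt1 to -0.02 (RLE), -0.01 (only the groups compared), -0.13 (replicate block), -0.02 and -0.03 (DESeq2), -0.03 and -0.03 (limma) and -0.35 (without the Hoxb13-low libraries), for Mt2 to 0.06 (upper-quartile) and 0.01 (Hoxb13 term) and for Zbtb16 to 0.46 (without the Hoxb13-low libraries). DXM against the other 3 groups changed for Zbtb16 to -0.02 (limma, FPKM + 1). Model against control changed for Ddit4 to 0.01 (replicate block) and 0.00 (Hoxb13 term), and for Fkbp5 to -0.05 (RLE), -0.00 (only the groups compared), -0.00 (replicate block), -0.05 and -0.04 (DESeq2) and -0.01 and -0.01 (limma). Rhy against model changed for Mt1 to -0.27 (replicate block), -0.26 and -0.27 (limma), -0.09 (Hoxb13 term) and -0.90 (without the Hoxb13-low libraries), for Mt2 to -0.08 (replicate block), -0.08 (limma, FPKM + 0.1) and -0.92 (without the Hoxb13-low libraries), and for Nr3c1 to -0.02 and -0.03 (limma), -0.04 (model 1 and 2 summed), -0.04 (Hoxb13 term) and -0.21 (without the Hoxb13-low libraries).

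Leaving out 1 library in turn also changed signs. DXM against control then ran from -0.32 to 0.69 for Dusp1, -0.64 to 0.52 for Mt1, -1.26 to 0.46 for Mt2 and -0.55 to 0.45 for Zbtb16. DXM against the other 3 groups then ran from -0.23 to 0.80 for Mt1, -0.20 to 1.42 for Mt2 and -0.17 to 0.35 for Zbtb16. Model against control then ran from -0.18 to 0.16 for Ddit4, -0.27 to 0.35 for Fkbp5 and -0.92 to 0.03 for Klf9. Rhy against model then ran from -1.02 to 0.45 for Mt1, -0.85 to 0.56 for Mt2 and -0.35 to 0.26 for Nr3c1.

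The fits with only the groups compared were not run for DXM against the other 3 groups, which takes in every library. The replicate block left 0 genes and 0 members called in each of the 5 comparisons. It changed no call. Same-numbered libraries deviated from their group means with correlations of -0.14 to -0.01 for DXM and model, -0.06 to 0.05 for DXM and control and -0.23 to 0.14 for Rhy and model, and 5 of 12 libraries correlated best with their own number, so outside model and control the numbers were not taken to pair the libraries. With 3 libraries a group the adjusted threshold was not reached by any member in the fit of all libraries, and Zbtb16 and Mt2 rested on low counts.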
